A study of Caenorhabditis elegans with 2 samples.

Results

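The 10 genes described here are markers of the differentiated intestine of larval or adult Caenorhabditis elegans, and each was examined for peaks of eGFP-tagged SKN-1, a transcription factor, near its 5′ end. They are the proteases asp-1 and cpr-1, the peptide transporter pept-1, the cytoskeletal genes act-5 and ifb-2, the esterase ges-1, the metallothionein mtl-2 and the vitellogenins vit-2, vit-5 and vit-6. The genes were chosen by name, as intestine markers and with earlier results of these data known, and are 10 of the 19973 nuclear protein-coding genes of the annotation. For each gene, summits of chromatin immunoprecipitation peaks were collected over a stretch around each annotated 5′ end, beginning 2000 bp before it and ending 200 bp past it, which is called the window of the gene.

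The study immunoprecipitated the SKN-1 fusion from whole L3 larvae of mixed sex and sequenced the recovered DNA (ChIP-seq). All larvae were of strain OP342, which carries unc-119(ed3) on chromosome III and wgIs342, the insertion that targets skn-1. There was 1 group of 2 samples, labelled biological replicates 1 and 2, with no treatment and an age given as unknown. The labels do not give the promoter or the tissues in which the fusion is made, and a peak from whole animals does not show in which tissue the protein was bound.

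The C. elegans intestine is a tube of few, large cells that digests and absorbs food, stores fat and, in the adult hermaphrodite, makes yolk. Its differentiated genes are known to depend on GATA transcription factors, chiefly ELT-2, which recognises the sequence TGATAA. SKN-1, a relative of the mammalian Nrf factors, starts the endoderm lineage in the early embryo through other GATA factors, and after hatching it acts in the intestine in the response to oxidative stress. The assay gives no transcript levels, so whether these genes were active in the larvae could not be checked from the lists.

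The deposited lists rank each peak by a signal value, a score on the authors' own scale that sets its order within a list. The list of replicate 1 had 22350 lines, that of replicate 2 had 30000 and the pooled one 30000, and all 3 mix peaks with background. The list that passed the authors' filter on the irreproducible discovery rate (IDR), a measure of how well ranks repeat between replicates, held 1778 peaks, which were the 1778 highest lines of the pooled list. Its signal values had a median of 37.6 and ended at 26.948, and the next pooled line had 26.946. Because the thresholded list was derived from the same replicates, a match in both is partly built in, and such a match within 100 bp was found for 1513 of its summits (85.1%). With 1 group there was no contrast between conditions to test, so every count below is a description, and ranks are compared only within a list.

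Of the 10 intestine genes, 4 had an IDR-thresholded summit in their windows, against 2013 of all 19973 protein-coding genes (10.1%). They were act-5, asp-1, ifb-2 and pept-1, and because the 10 genes were chosen with earlier results known, the contrast is a description only. All 4 summits lay in intergenic sequence, as did 1191 of the 1778, and each was matched within 100 bp in replicate 1 and in replicate 2, as were 85.1% of the 1778. The deposited q-value does not set them apart, since it is at its ceiling in all 1778 thresholded peaks and in 1269 further pooled lines. Their ranks ran from 821 to 1770 of 1778, and asp-1 alone lay above the median signal value of that list. The sequences below are the 75 bp on each side of these summits, read from the RefSeq genome (ce11, the same assembly as WBcel235) on the strand of the gene, 5′ to 3′. They are shown because they hold the summits on which the count rests. Capitals mark TGATAA, or its reverse complement TTATCA, and would also mark the SKN-1 consensus, spelled NNTATCAT or NNTGTCAT with each N being A or T, on either strand.
asp-1, aspartyl protease, chrV:19051558-19051708, minus strand: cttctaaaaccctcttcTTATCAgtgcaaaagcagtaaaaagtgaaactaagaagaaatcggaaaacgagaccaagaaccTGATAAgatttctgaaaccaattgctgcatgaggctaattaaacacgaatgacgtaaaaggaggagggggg
pept-1, peptide transporter, chrX:6456576-6456726, plus strand: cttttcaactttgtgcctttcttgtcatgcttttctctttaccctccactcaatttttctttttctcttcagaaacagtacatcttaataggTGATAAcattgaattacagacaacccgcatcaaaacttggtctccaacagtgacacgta
act-5, microvillar actin, chrIII:13606125-13606275, minus strand: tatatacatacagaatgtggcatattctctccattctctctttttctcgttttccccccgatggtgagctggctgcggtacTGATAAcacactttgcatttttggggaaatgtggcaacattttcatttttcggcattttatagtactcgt
ifb-2, intermediate filament, chrII:5748613-5748763, plus strand: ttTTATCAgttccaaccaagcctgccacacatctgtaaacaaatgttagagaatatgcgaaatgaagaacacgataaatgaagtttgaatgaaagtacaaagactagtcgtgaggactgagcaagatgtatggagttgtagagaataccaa

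**Figure D1:**
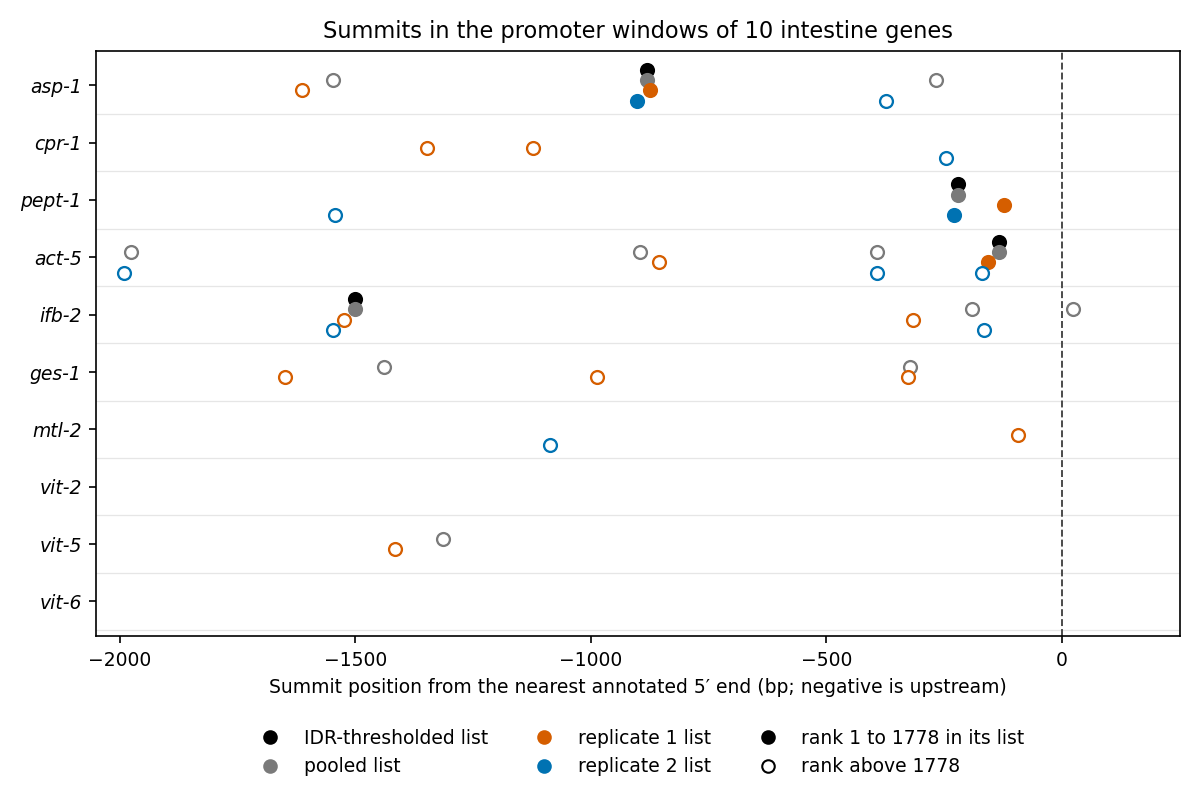
Summits in the windows of the 10 intestine genes. The x axis is the distance of each summit from the nearest annotated 5′ end in bp, rows are genes, colours are the 4 lists, and filled points rank 1 to 1778 in their list. The IDR-thresholded summits of pept-1 and act-5 lie near the 5′ end, those of asp-1 and ifb-2 farther upstream, and the rows of vit-2 and vit-6 are empty.

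The digestive proteases differed. The gene asp-1 (chromosome V, 19049562 to 19050752, minus strand), which encodes an aspartyl protease of the cathepsin D type, had the strongest peak of the 10 genes. This peak spanned 19051468 to 19051797 with its summit 881 bp upstream of the 5′ end, and its signal value was 39.0, at rank 821. In replicate 1 the summit lay 7 bp away, with a signal value of 10.004 and rank 1288. In replicate 2 it lay 20 bp away, with a signal value of 25.9 and rank 1069. It was one of 847 thresholded summits (47.6%) whose matches ranked within the first 1778 lines of both replicates. The other lines in the asp-1 window were weak, with pooled ranks of 24117 and 28872, a replicate 1 rank of 10872 and a replicate 2 rank of 7364.

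The gene cpr-1 (chromosome V, 11975551 to 11976756, plus strand), which encodes a cysteine protease of the cathepsin B type, had no pooled or thresholded summit in its window. Replicate 1 held 2 lines there, 1347 and 1123 bp upstream, with signal values of 2.52 and 2.07 and ranks of 17380 and 21619. Replicate 2 held 1 line, 247 bp upstream, with a signal value of 4.24 and rank 19292. No line of one replicate lay near a line of the other, and all ranked deep in the lists. The nearest thresholded summit lay 4500 bp downstream of the 5′ end, beyond the 3′ end of cpr-1, in a noncoding RNA exon of C52E4.14, at rank 223.

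The gene pept-1 (chromosome X, 6456872 to 6461767, plus strand) encodes the proton-coupled transporter that takes up di- and tripeptides from the gut lumen. Its thresholded peak spanned 6456486 to 6456815, with the summit 221 bp upstream, a signal value of 32.7 and rank 1206. The replicate 1 summit had a signal value of 10.6 at rank 1125, and the replicate 2 summit had 23.04 at rank 1365. Both replicates thus ranked it within their first 1778 lines, but the replicate 1 summit lay 99 bp from the thresholded one, at the edge of the distance allowed, and the replicate 2 summit 8 bp from it. The same summit fell in the window of nas-33, an astacin metalloprotease gene with a more distant 5′ end, and a summit in the windows of several genes does not show which of them it serves. The only other line was in replicate 2, 1542 bp upstream at rank 25946. Inside the pept-1 gene itself lay 5 pooled, 4 replicate 1 and 3 replicate 2 summits, none of them thresholded. Such counts over all genes are not given here.

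The genes of the apical cytoskeleton both had a thresholded summit, at the low end of the list. The gene act-5 (chromosome III, 13604412 to 13606066, minus strand) encodes the actin of the intestinal microvilli. Its peak spanned 13606035 to 13606364, so that it covered the 5′ end, with the summit 134 bp upstream, a signal value of 28.2 and rank 1630. The replicate 1 summit, 22 bp away, had a signal value of 11.9 and rank 884, and the replicate 2 summit, 36 bp away, had 20.02 and rank 1817. Replicate 2 therefore placed it just past line 1778. More lines filled this window than any other of the 10, with 4 pooled, 2 replicate 1 and 3 replicate 2 summits. The pooled summit 1976 bp upstream, in an untranslated exon of shpk-1, had a signal value of 22.4 at rank 2466, and a replicate 2 summit lay 1991 bp upstream at rank 2035. The pooled summit 393 bp upstream had a signal value of 18.5 at rank 3399, and replicate 2 held a summit at the same base at rank 2674. Replicate 1 had no line near either of these, and its only other line lay 856 bp upstream, with a signal value of 7.26 at rank 2585. All of these summits also lay in the window of shpk-1.

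The gene ifb-2 (chromosome II, 5750188 to 5754140, plus strand) encodes an intermediate filament protein of the sheath under the microvilli. Its thresholded peak spanned 5748523 to 5748852, with the summit 1500 bp upstream, a signal value of 26.99 and rank 1770 of 1778. In replicate 1 the matching summit, 24 bp away, had a signal value of 5.80 and rank 4220. In replicate 2 the matching summit, 48 bp away, had 9.59 and rank 6235. Both matches thus ranked below line 1778, as did those of 77 thresholded summits in all (4.33%). A summit closer to the gene, 191 bp upstream in a noncoding RNA exon of F10C1.14, had a pooled signal value of 17.6 at rank 3706. In replicate 2 the nearby summit, 165 bp upstream, had 11.6 at rank 4617 and exceeded the distal one, and in replicate 1 the closest line lay 316 bp upstream at rank 10555.

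**Figure D2:**
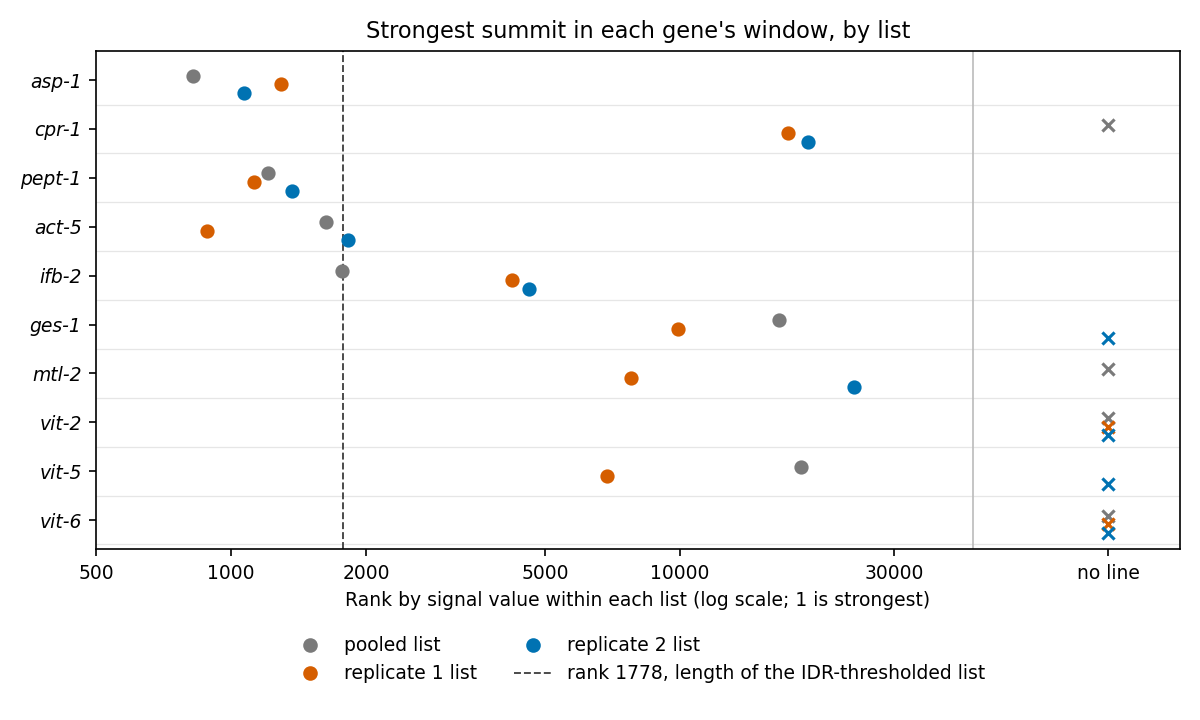
Rank of the strongest summit in each gene's window in the pooled and the 2 replicate lists. The x axis is the rank by signal value on a log scale, with 1 the strongest, crosses at the right mark genes with no line, and the dashed line marks rank 1778. Points of asp-1 and pept-1 lie left of the line in all 3 lists, act-5 straddles it at 1817 in replicate 2, and ifb-2 lies left of it in the pooled list at 1770.

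The genes ges-1 and mtl-2 had lines of low rank. The gene ges-1 (chromosome V, 1427653 to 1432137, minus strand) encodes a gut esterase and is a classical reporter of intestinal differentiation. The pooled list held summits 1440 and 323 bp upstream of it, with signal values of 6.79 and 5.19 at ranks 16615 and 23811. Replicate 1 held summits 987, 1649 and 327 bp upstream, at ranks 9914, 11021 and 12231, and replicate 2 held none. Both pooled lines of the window were thus without a counterpart in replicate 2, and the nearest thresholded summit was 39622 bp upstream. The nearest replicate 2 line lay 1330 bp downstream of the 5′ end, past the window, in an intron of ges-1 at rank 15014.

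The gene mtl-2 (chromosome V, 14018270 to 14018673, minus strand) encodes a metallothionein, a small metal-binding protein that is induced by cadmium in the intestine. It had no pooled summit in its window. Replicate 1 held a summit 93 bp upstream, with a signal value of 4.30 at rank 7764, on an untranslated exon of the divergent neighbour T08G5.1 and also in the window of srh-308. Replicate 2 held a summit 1087 bp upstream, in a coding exon of T08G5.1, with a signal value of 3.36 at rank 24461. The replicates did not share a summit, and the nearest thresholded one lay 6400 bp downstream of the 5′ end, beyond the 3′ end.

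The vitellogenins, whose products are the yolk proteins that the adult intestine exports to oocytes, had few lines or none. The gene vit-5 (chromosome X, 3403471 to 3408603, plus strand) had 1 pooled summit, 1314 bp upstream in an intron of C04F6.9, with a signal value of 6.27 at rank 18608. Replicate 1 held a summit 1415 bp upstream with a signal value of 4.58 at rank 6874, and replicate 2 held none. The genes vit-2 (chromosome X, 5101042 to 5106169, plus strand) and vit-6 (chromosome IV, 8261157 to 8266459, plus strand) had no line in any of the 4 lists. Of all protein-coding genes, 5672 (28.4%) also had no line in any list, so an empty window is common. The nearest pooled summit lay 4066 bp upstream of vit-2, in a coding exon of acn-1 at rank 9713, and 8100 bp upstream of vit-6, where it was also a thresholded summit, at rank 1172. Within the gene bodies, of 5133 bp for vit-5 and 5303 bp for vit-6, no list held a line, and vit-2 held 1, in replicate 2. How common empty gene bodies of this length are over all genes is not given here.

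Repeated sequence in the windows was measured as well, because reads from it cannot be placed uniquely. Of the 36-bp words in each window, the share that occurs once in the genome was 100% for vit-2, vit-6, cpr-1, mtl-2, pept-1 and ifb-2. It was 99.1% for act-5, 98.7% for ges-1, 97.9% for vit-5 and 95.2% for asp-1. The lowest share was that of the gene with the strongest peak.

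At any rank, the share of intestine genes was close to that of all genes in the pooled and replicate 2 lists and higher in the replicate 1 list. In the pooled list at any rank, 6 of the 10 intestine genes had a summit, against 56.8% of all protein-coding genes. In replicate 1 at any rank, 8 of the 10 had one, against 48.4% of all genes. In replicate 2 at any rank, 6 of the 10 had one, against 56.7% of all genes. When the replicate lists were held to their first 1778 lines, 3 of the 10 intestine genes (act-5, asp-1 and pept-1) had a summit in replicate 1, against 9.02% of all genes. In replicate 2, 2 of the 10 (asp-1 and pept-1) had one, against 9.87% of all genes. The median of the highest pooled signal value, with 0 for a gene without a line, was 6.53 over the 10 intestine genes and 5.39 over all genes. With 10 genes each gene weighs heavily in a share, and no test was made.

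**Figure D3:**
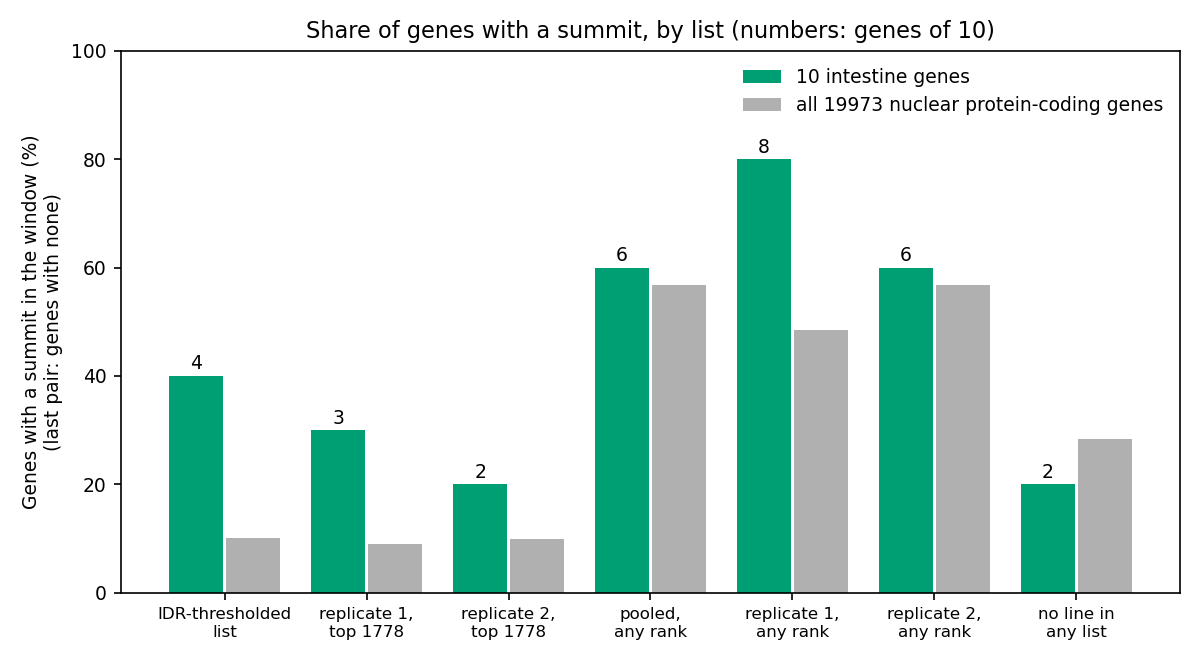
Share of genes with a summit in the window in each list, for the 10 intestine genes (green) and for all 19973 nuclear protein-coding genes (grey). The y axis is percent of genes from 0, the number on a green bar is the count of 10, and the last pair gives genes with no line in any list. The shares stand furthest apart in the thresholded list (4 of 10 against 10.1%) and in replicate 1 at any rank (8 of 10 against 48.4%), and lie close in the pooled and replicate 2 lists at any rank.

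The sequence under the thresholded summits held the GATA motif more often than the SKN-1 consensus. TGATAA was chosen for this search after the data had been seen, while the consensus is the one searched in earlier work on these data. A match is a description of the letters, not a known site, and the motifs can overlap, as in ATGATAAA, which is the reverse complement of a consensus match. The centre of a TGATAA match lay within 50 bp of the summit at 3 of the 4, 7.5 bp away at asp-1, 8.5 bp at act-5 and 19.5 bp at pept-1. At ifb-2 the closest match was 70.5 bp away. The share with such a match was 14.3% over all 1778 thresholded summits, 13.2% over the 28222 other pooled summits and 10.4% over 419413 stretches of 101 bp in the windows of all genes. The replicate summits kept close to the same match at asp-1, at 0.5 bp in replicate 1 and 27.5 bp in replicate 2. At act-5 they lay 30.5 bp from it in replicate 1 and 44.5 bp in replicate 2. At pept-1 the replicate 2 summit lay 27.5 bp from this match, whereas the replicate 1 summit lay 75.5 bp from a different one, closer to the gene. At ifb-2 both replicate summits lay closer to the match than the thresholded one, at 46.5 bp in replicate 1 and 22.5 bp in replicate 2.

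The SKN-1 consensus was found within 50 bp of none of the 4 summits. Its share was 12.4% over all thresholded summits, 6.26% over the other pooled summits and 5.57% over the stretches of 101 bp. The closest consensus match lay 107.5 bp from the summit at pept-1, 885.5 bp at ifb-2, 989.5 bp at asp-1 and 1203.5 bp at act-5. A count over 4 summits is small, and no test was made of it.

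Over the 300 bp upstream of the 5′ end, 8 of the 10 intestine genes held TGATAA, against 30.8% of all protein-coding genes. The exceptions were asp-1 and ges-1. In the same stretch 2 of the 10, pept-1 and vit-6, held the SKN-1 consensus, against 16.4% of all genes. Over the whole window the contrast was smaller, with TGATAA in all 10 intestine genes and 88.8% of all genes, at a median of 3.5 and 2 matches per gene. The consensus was in 8 of the 10 and in 69.5% of all genes, at a median of 1 match in each. The act-5 window held the most TGATAA matches of the 10, with 10, and the vit-6 window the most consensus matches, with 4. The stretches below show these letters within the 300 bp upstream of 4 of the genes, on the strand of the gene. They come from the same RefSeq ce11 sequence, with capitals as above. The pept-1 stretch holds both motifs on the same bases. The mtl-2 and vit-2 stretches each hold a pair of TGATAA matches, and the vit-6 stretch holds separate matches to both motifs in a window that no list marks.
pept-1, 80 bp up to the 5′ end, chrX:6456792-6456871, plus strand: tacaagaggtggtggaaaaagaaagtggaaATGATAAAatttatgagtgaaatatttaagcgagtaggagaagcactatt
mtl-2, 90 bp up to the 5′ end, chrV:14018674-14018763, minus strand: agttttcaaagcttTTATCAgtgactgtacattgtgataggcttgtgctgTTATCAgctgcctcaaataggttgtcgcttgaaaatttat
vit-2, a stretch of 120 bp, chrX:5100862-5100981, plus strand: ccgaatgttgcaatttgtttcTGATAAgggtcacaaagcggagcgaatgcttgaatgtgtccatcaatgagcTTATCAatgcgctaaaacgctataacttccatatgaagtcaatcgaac
vit-6, a stretch of 200 bp, chrIV:8260857-8261056, plus strand: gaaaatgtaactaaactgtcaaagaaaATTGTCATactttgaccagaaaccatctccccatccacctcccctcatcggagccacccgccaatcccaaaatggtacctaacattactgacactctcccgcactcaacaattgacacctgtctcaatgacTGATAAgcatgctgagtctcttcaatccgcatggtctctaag

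The pept-1 match begins 50 bp upstream of the 5′ end, and the replicate 1 summit, at 122 bp, lies nearer to it than the thresholded one. The mtl-2 matches lie 40 and 76 bp upstream, and the nearest summit to them is the replicate 1 line at 93 bp. The vit-2 matches lie 108 and 159 bp upstream. In vit-6 the consensus match lies 273 bp and the TGATAA match 142 bp upstream. Neither vitellogenin had a summit there in any list, so letters of both motifs occur in these data with and without a peak.

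**Figure D4:**
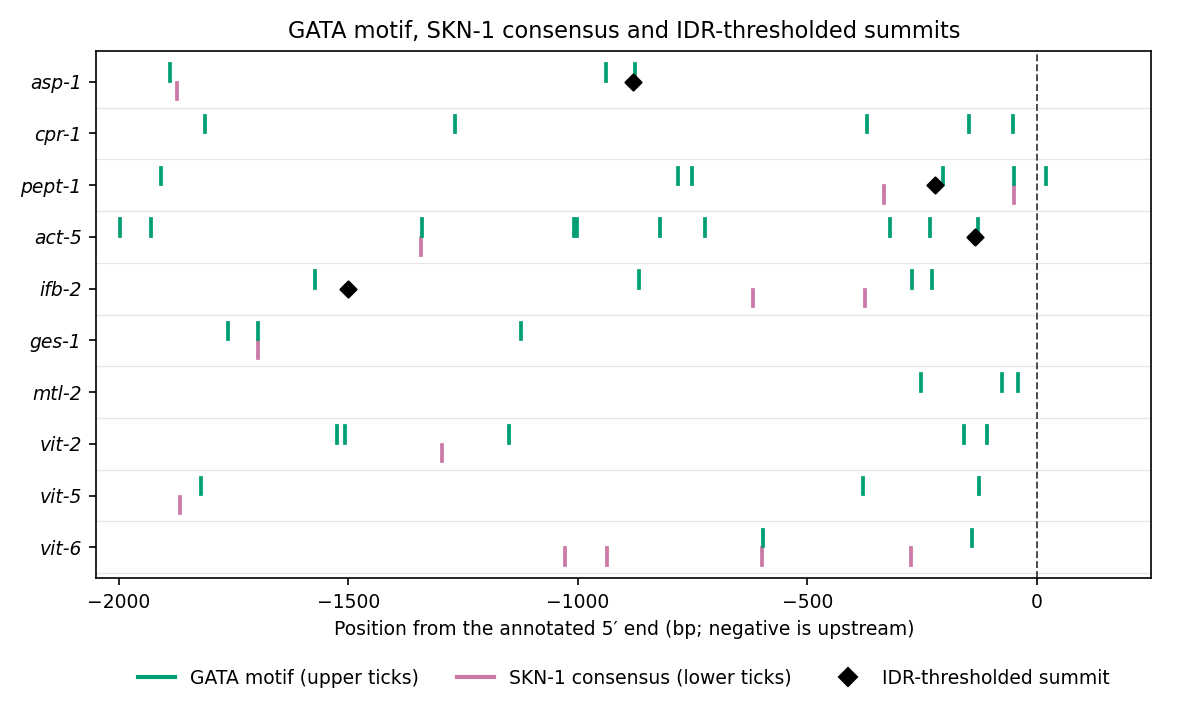
Matches to the GATA motif (green, upper ticks) and the SKN-1 consensus (pink, lower ticks) in the windows of the 10 intestine genes, with IDR-thresholded summits as black diamonds. The x axis is the distance of the first base of a match, or of a summit, from the annotated 5′ end in bp. The diamonds of act-5, asp-1 and pept-1 stand beside a green tick, and all 10 rows carry green ticks.

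Other genes of the same roles were read from 10 lists of 85 intestine genes, of which 83 matched the annotation. A few of them, such as the muscle-type actins, are not restricted to the intestine. An IDR-thresholded summit was found for 9 of the 83 (10.8%), against 10.1% of all protein-coding genes. Of the paralogs of the 10 genes, the other vitellogenins had 0 of 3, the aspartyl proteases 1 of 9, the cysteine proteases 1 of 8 and the actins 1 of 4. Brush-border and intermediate filament genes had 0 of 12, transporters 1 of 11, metal-handling genes 1 of 9, esterases, phosphatases and lipases 2 of 9, immune effectors 1 of 10 and regulators 1 of 8. Beyond the 10 genes, a thresholded summit was thus about as frequent in these lists as over all genes.

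Among the proteases, cpr-3, a relative of cpr-1, had a signal value of 55.5 at rank 345, 145 bp upstream, with ranks of 3963 in replicate 1 and 201 in replicate 2. The aspartyl protease gene asp-12 had 27.7 at rank 1689, 1744 bp upstream, shared with F21F8.5. The actin act-2 had 30.9 at rank 1362, 437 bp upstream, in noncoding RNA exons. These put a peak at another member of 3 of the families, with cpr-3 above every one of the 10 genes.

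The strongest was ftn-2, which encodes a ferritin and is a gene of iron storage, with 74.1 at rank 157, 1130 bp upstream, and ranks of 183 in replicate 1 and 188 in replicate 2. A second ftn-2 summit, 160 bp downstream of the 5′ end, had 28.1 at rank 1643. The gut granule gene glo-3 had 62.3 at rank 250 without a match in replicate 1, and lipl-2, a lipase gene, had 45.9 at rank 565, at a summit also in the window of ztf-7. The aquaporin aqp-8 had 38.2 at rank 862, at a summit also in the window of dhhc-10, and the lysozyme gene lys-2 had 28.2 at rank 1634, neither with a match in replicate 1. The zinc-finger factor pqm-1 had 29.7 at rank 1465, with ranks of 17828 in replicate 1 and 1224 in replicate 2. Of the 10 summits of these 9 genes, 6 had TGATAA and 4 the consensus within 50 bp. The shares over all thresholded summits were 14.3% and 12.4%, and no test was made. Both motifs stood at the same distance from the upstream ftn-2 summit (10.5 bp) and from the lys-2 summit (47.5 bp). The same bases may thus enter both counts there.

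The GATA factor genes themselves had no thresholded summit. The elt-2 window had its highest pooled line at rank 4609, with a signal value of 15.4, close to the upstream edge of the window. The highest replicate 2 line, at rank 11342, lay near the same edge. The highest replicate 1 line, at rank 3492, lay elsewhere, closer to the gene and well outside the 100 bp allowed for a match. The gene elt-7 encodes a related factor acting beside ELT-2. Its highest pooled line lay 142 bp upstream at rank 23593, with a signal value of 5.23. The highest replicate 1 line lay 307 bp downstream of the nearest 5′ end at rank 9754. The highest replicate 2 line lay 27 bp upstream at rank 10808. In their windows both genes thus had lines only below the threshold, as did ges-1 and vit-5, whose windows unlike theirs held no replicate 2 line. Over all protein-coding genes, 56.8% had a pooled summit and 10.1% a thresholded one.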

How the data were processed

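ChIP-seq of an eGFP fusion of SKN-1 was analysed for 2 biological replicates, from the 4 peak lists on build ce11 that the authors deposited. Per the text deposited with the samples, each replicate list came from that replicate and a control alignment, the pooled list from both replicates, and the thresholded list from all of these by IDR. Aligner, peak caller and IDR threshold were not given in the sources. Signal tracks, the control and the ce10 lists were not used.

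Signal values are a score on the authors' own scale, and no source states their unit. The q-values were deposited as −log10 and reach a ceiling of 3.78 in the pooled and thresholded lists, 3.74 in replicate 1 and 4.04 in replicate 2. The lists do not give read depth, and therefore no intervals are printed.

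Summits were computed from the deposited offset and placed in windows of Ensembl release 115 genes (5′ ends of protein-coding transcripts, chromosome ends within the assembly, highest ratio 0.99993). Replicate summits matched within 100 bp. Motifs were searched on both strands, their centres within 50 bp of a summit. Distances are to the nearest annotated 5′ end. Work was done in Python 3.11.15 with pandas 2.3.3, numpy 2.4.6 and matplotlib 3.10.9, and the window search was tested on simulated data with 200 seeded genes.

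Named were all 10 genes, other genes that share their thresholded summits, up to 3 genes with the highest signal per list of other intestine genes, paralogs with a thresholded summit, and elt-2 and elt-7. Genes named for a position (C52E4.14, F10C1.14, F21F8.5, slcf-1, ztf-7, dhhc-10, T08G5.1, srh-308, C04F6.9 and acn-1) were added after their values were seen. The genes and lists were chosen with earlier results of these data known, and the TGATAA search was added after the data were seen. Alternatives were narrower windows, the nearest gene, a list of the 889 strongest peaks, any overlap of a peak, each replicate's first 1778 lines in place of the thresholded list, other match distances and other motif distances.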

Additional observations from a re-analysis of the deposited data

How the results depend on the processing

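The count of 4 intestine genes with an IDR-thresholded summit fell to 2 (pept-1 and act-5) with a window of 500 bp upstream and to 1 (asp-1) with the 889 strongest peaks, where all protein-coding genes stood at 6.32% and 5.56%. With the first 1778 lines of a single replicate in place of the thresholded list, the count ranged from 2 (asp-1 and pept-1, without replicate 1) to 3 (also act-5, without replicate 2). It was 3 with 1000 bp (7.75% of all genes), 4 for the nearest gene only (8.06%) and 4 for any overlap of the peak (10.4%). The other intestine genes, 9 in the main count, numbered 5 with 1000 bp, 4 with 500 bp and 5 with the 889 strongest peaks, and 7 to 10 under the other settings, with changed membership: by the nearest gene, asp-12, aqp-8 and lipl-2 left and asp-13 and asp-14 entered. Matches in both replicates held for 4 genes within 100 and 200 bp, for 3 within 50 bp (pept-1 lost), and for 2 (asp-1 and pept-1) with both replicate lists held to 1778 lines. The consensus count was 0 at 25 and 100 bp, and TGATAA counted 3 at 25 bp and 4 at 100 bp. No paired analysis was possible because there is 1 group. Depth is unknown, so a window without a line shows only that no line was listed there.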

Other observations

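The 12 brush-border and intermediate filament genes had no IDR-thresholded summit, and their highest pooled ranks spread widely. Named after their values were seen, ajm-1, an apical junction gene, had its highest pooled line at rank 1844 (signal value 26.5), and the intermediate filament gene ifd-1 at rank 1881 (26.2). The filament organiser ifo-1 stood at rank 2439 (22.6) and erm-1, of the ezrin family, at rank 2915 (20.3). The other members were lower, from rank 3594 for ifc-2 to rank 28830 for ifb-1, and ifc-1 had no pooled line. The ifd-1 window held no line in replicate 1. The metallothionein mtl-1, a paralog of mtl-2, had 1 pooled line, at rank 16340 (6.88), and none in either replicate list. Of the other vitellogenins, vit-3 had a pooled line at rank 26051, and vit-1 and vit-4 had no line in any list.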
